A study of Mus musculus with 6 samples.

Results

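The ETS transcription factors share a DNA-binding domain that recognizes a GGAA core, and the Pea3 group, Etv1 (Er81), Etv4 (Pea3) and Etv5 (Erm), is only one branch of the family. The genes described here are 10 factors from other branches, Ets1, Ets2, Fli1, Erg, Elk1, Elk3, Elk4, Etv3, Etv6 and Gabpa. They were chosen by name as candidates that might rise when the Pea3 genes are lost, with earlier results of these data known. All 10 were found among the 23420 gene symbols in the counts tables. RNA came from the lacrimal gland epithelium of E14.5 mouse embryos of mixed background, isolated by laser capture, in 3 libraries of Control (Le-Cre) and 3 of Pea3 TKO (Le-cre, Pea3-/-, Ermfl/fl, Er81fl/fl). Le-Cre is a transgene that expresses Cre in the ocular surface ectoderm and its derivatives, including the conjunctiva and the lacrimal gland bud. Both groups carry this transgene by the paper's account, whereas the sample titles call the controls WT. The paper gives Le-Cre for its RNA-seq controls. Its methods name as controls both Le-Cre mice and Le-Cre mice heterozygous for the Pea3, Erm and Er81 alleles. In Pea3 TKO the Pea3 allele is null in every cell, whereas Erm and Er81 are floxed and are lost only where Cre is active. Nothing in the labels says how many embryos went into a library, so the p-values measure the spread between these samples.

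Within the family, Ets1 and Ets2 are activators that ERK can phosphorylate, Elk1, Elk3 and Elk4 are the ternary complex factors that bind DNA beside the serum response factor (SRF) at immediate early genes, Etv3 and Etv6 are repressors, Gabpa is the DNA-binding subunit of the GA-binding protein that drives many housekeeping and mitochondrial genes, and Fli1 and Erg are best known in endothelial and blood cells. Factors that bind the same core can occupy the same sites, which is why other family members are looked at when 1 branch is removed. FGF signaling through ERK drives the lacrimal bud, and several of these factors are nuclear substrates of ERK.

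Libraries held between 14194775 and 17860140 counts, and at these depths 3 counts in a library correspond to between 0.169 and 0.210 CPM. CPM is the TMM-normalized count scaled to a common library size. Each adjusted p comes from the edgeR quasi-likelihood test and was adjusted by Benjamini-Hochberg across 13087 genes with enough reads, and a gene was called where it was under 0.05. The targeted genes went with the labels, since Etv5 was between 961.4 and 1202 CPM in Control and between 88.2 and 177.0 in Pea3 TKO, Etv4 between 129.4 and 184.2 against 10.9 to 28.4, and Etv1 between 28.7 and 33.9 against 9.21 to 9.98. As for the tissue label, all 8 markers of the lacrimal epithelium were detected in every library. However, 7 of them were called between the groups, against 25.0% of all tested genes. Epcam, between 1201 and 1500 CPM, did not pass, whereas 5 were called higher in Pea3 TKO, among them Krt8 (log2 fold change 1.61), and 2 lower, Sox9 (-0.53) and Sox10 (-2.43). Some libraries stood apart in ways the groups do not explain. The 4 Y-linked genes examined summed to between 135.7 and 174.7 CPM in the 3 Control libraries and 139.0 in Pea3 TKO replicate 3, but to 0.445 and 0.210 in Pea3 TKO replicates 1 and 2. Of 13 mesenchymal markers, 12 were tested and 2 were called, both higher in Pea3 TKO, against 13.6% called higher among all tested genes. Summed over the 13, Pea3 TKO replicates 1 and 2 had 423.9 and 590.2 CPM, whereas Pea3 TKO replicate 3 had 15.6 and the controls 21.9 to 137.3. Results are therefore also given with these 2 libraries left out, a setting chosen after the data were seen, in which Pea3 TKO replicate 3 is compared with the 3 controls and assumed to vary like them.

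Of the 10 factors, 8 had enough reads to test. In Pea3 TKO, Ets1, Etv3 and Ets2 rose, Elk3 fell, and Elk1, Elk4, Etv6 and Gabpa did not pass the test. That makes 4 of 8 called, 3 higher and 1 lower, against 25.0% of all tested genes, 13.6% higher and 11.3% lower. With Pea3 TKO replicates 1 and 2 left out, 1 member was called higher and 0 lower, in a fit that called only 4.32% of all genes tested in it. The median log2 fold change was 0.17 over the 8 tested factors and 0.0094 over all tested genes.

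**Figure D1:**
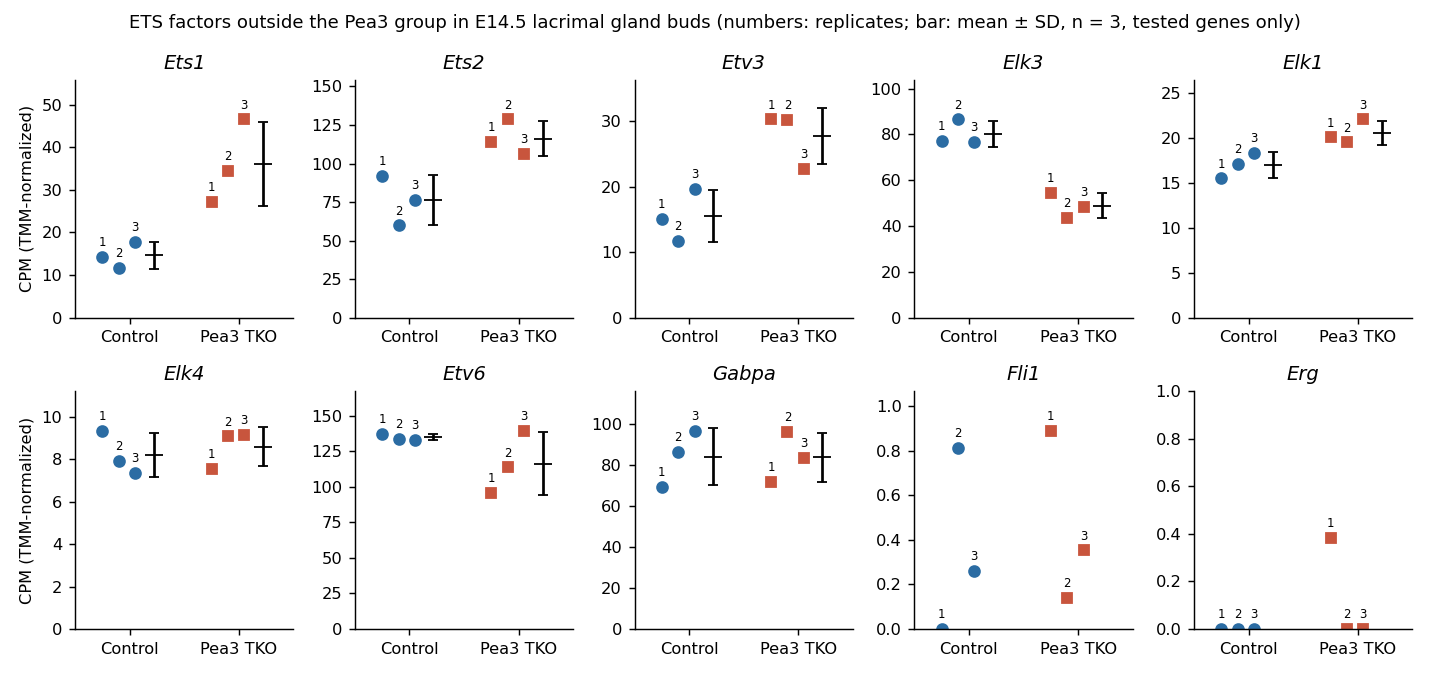
CPM of each of the 10 factors in every library, on linear axes that start at 0 and differ between panels, with circles for Control, squares for Pea3 TKO, replicate numbers above the points and the mean ± SD of n = 3 beside them for the 8 tested genes. The Pea3 TKO points lie above all Control points for Ets1, Ets2, Etv3 and Elk1 and below them for Elk3. Such separation was common, with 22.5% of all tested genes above and 21.3% below. Fli1 and Erg stay under 1 CPM.

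Ets1 showed the largest change among the 8 tested factors. In order of replicate number, its values were 14.3, 11.7 and 17.8 CPM in Control and 27.2, 34.3 and 46.5 in Pea3 TKO. Every Pea3 TKO library was above every control, as for 22.5% of all tested genes, and the highest value was that of Pea3 TKO replicate 3. The mean rose from 14.6 ± 3.09 to 36.0 ± 9.78 CPM (SD, n = 3 each). On the log2 scale the difference was 1.31 (standard error 0.25, adjusted p = 0.0057), or 2.47-fold, with a 95% interval from 1.67 to 3.65. The call did not rest on 1 library, as the 6 fits that each left out a sample gave log2 fold changes from 1.08 to 1.47, all past the threshold. With Pea3 TKO replicates 1 and 2 left out, Pea3 TKO replicate 3 gave 1.68 against the controls (adjusted p = 0.031). Since Ets1 is also active in leukocytes, their markers were looked at. The 12 leukocyte markers summed to 2.24 to 38.5 CPM in Control and to 0.705 to 32.7 in Pea3 TKO, none of the 9 tested was called, and their part in the Ets1 values was not tested. In bulk samples, a change in the number of cells of a type and a change in RNA per cell cannot be told apart.

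Ets2, the closest relative of Ets1, rose by a smaller factor, though the difference between the 2 genes was not tested. Its values were 92.1, 59.8 and 76.3 CPM in Control and 113.9, 128.7 and 106.1 in Pea3 TKO. The groups did not overlap, but the gap between Control replicate 1 and Pea3 TKO replicate 3 was small beside the spread within the controls. The mean rose from 76.1 ± 16.1 to 116.2 ± 11.4 CPM (n = 3 each). This is 0.61 on the log2 scale (standard error 0.17, adjusted p = 0.025), or 1.53-fold with a 95% interval from 1.18 to 1.98. Without Control replicate 2, Control replicate 3, Pea3 TKO replicate 1 or Pea3 TKO replicate 2, the log2 fold change lay between 0.46 and 0.63 and the adjusted p between 0.0588 and 0.0885, so the call was lost with any of these 4 libraries out. For Pea3 TKO replicate 3 against the 3 controls it was 0.49 (adjusted p = 0.30).

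Etv3, a repressor of the Erf type, rose as well. Control libraries held 15.1, 11.8 and 19.7 CPM, and Pea3 TKO libraries 30.3, 30.2 and 22.7. Pea3 TKO replicate 3 was nearest to the controls, whereas for Ets1 it was the farthest from them. The mean rose from 15.5 ± 3.98 to 27.7 ± 4.34 CPM (n = 3 each). The log2 difference was 0.84 (standard error 0.24, adjusted p = 0.032), which is 1.79-fold with a 95% interval from 1.23 to 2.60. This call was lost without Control replicate 1 or 2 or Pea3 TKO replicate 1 or 2, when the log2 fold change was between 0.67 and 0.82 and the adjusted p between 0.057 and 0.11. Pea3 TKO replicate 3 against the controls gave 0.56 (adjusted p = 0.42).

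Elk3 was the only tested member called lower. This ternary complex factor, also known as Net, can repress SRF target genes until ERK phosphorylates it. It had 77.2, 86.6 and 76.7 CPM in Control and 54.5, 43.6 and 48.5 in Pea3 TKO, and the groups did not overlap. Among all tested genes, 21.3% had every Pea3 TKO library below every control. The mean fell from 80.2 ± 5.55 to 48.9 ± 5.44 CPM (n = 3 each). The log2 difference was -0.71 (standard error 0.14, adjusted p = 0.0059), or 0.610-fold with a 95% interval from 0.492 to 0.756. All 6 fits without 1 sample kept it past the threshold, from -0.80 to -0.64. Pea3 TKO replicate 3 against the controls gave the same size, -0.72, with an adjusted p of 0.0855.

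The other 2 ternary complex factors, Elk1 and Elk4, did not pass the test. Elk1, which is X-linked, had 15.5, 17.1 and 18.3 CPM in Control and 20.1, 19.5 and 22.1 in Pea3 TKO. These values do not overlap, yet the log2 difference of 0.27 (standard error 0.20, adjusted p = 0.35) did not pass, with a 95% interval from -0.17 to 0.72. With the 2 libraries of low Y-linked reads left out it was 0.39 (adjusted p = 0.47). Among all tested genes, 43.9% had no overlap between the groups, 22.5% with Pea3 TKO above, so separation of 3 libraries from 3 was common in these data. Elk4 was between 7.35 and 9.36 CPM in Control and between 7.56 and 9.16 in Pea3 TKO. Its log2 fold change was 0.07 with an interval from -0.58 to 0.72 (adjusted p = 0.89), which leaves changes of up to 1.64-fold unresolved.

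Etv6 and Gabpa did not pass either. Etv6, a repressor needed for blood stem cells, had 137.1, 133.9 and 133.1 CPM in Control and 95.6, 113.6 and 139.4 in Pea3 TKO. The controls were nearly equal while Pea3 TKO replicate 3 lay above them and the other 2 below, and the log2 fold change was -0.21 (standard error 0.14, 95% interval -0.53 to 0.11, adjusted p = 0.32). Pea3 TKO replicate 3 alone gave 0.06 (adjusted p = 0.85), so even the sign rested on the other 2. Gabpa had 69.4, 86.6 and 97.0 CPM in Control and 72.1, 96.2 and 83.6 in Pea3 TKO. The ranges coincide, and the log2 fold change was -0.0055 (adjusted p = 0.99) with an interval from -0.37 to 0.36, so a rise of more than 1.28-fold lies outside the 95% interval.

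Fli1 and Erg were at or near the limit of these libraries and had too few reads to test. Fli1 had 0, 13 and 4 counts in Control and 14, 2 and 6 in Pea3 TKO. Erg had 0 counts in 5 libraries and 6 in Pea3 TKO replicate 1. No value exceeded 0.889 CPM, and neither gene separated the groups. Endothelial markers were low but not uniformly so. Tie1, Emcn and Robo4 were at 0 in all 6 libraries and Cdh5 at 1 count in Pea3 TKO replicate 1 and 0 elsewhere, whereas Pecam1 reached 3.19 CPM and Tek 4.89 in single libraries. Eng was present in every library, with 42, 87 and 56 counts in Control and 12, 21 and 23 in Pea3 TKO. Its Pea3 TKO values were all below the controls, as for 21.3% of all tested genes. Kdr had 0 counts in the controls and Pea3 TKO replicate 3 and 22 and 34 in Pea3 TKO replicates 1 and 2. Of 19 endothelial markers 8 were tested, and 1, Ramp2, was called (higher, log2 fold change 2.66, adjusted p = 0.032), against 25.0% of all tested genes. Of the 8 tested, 4 had a positive log2 fold change. Among the others were Eng (-1.67, adjusted p = 0.072) and Pecam1 (-1.71, adjusted p = 0.43). Their sum was 34.8 to 42.7 CPM in Control and 26.7 to 42.5 in Pea3 TKO, and most of these reads came from Egfl7, which had 28.2 ± 3.54 and 20.2 ± 3.61 CPM (n = 3 each, adjusted p = 0.12).

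**Figure D2:**
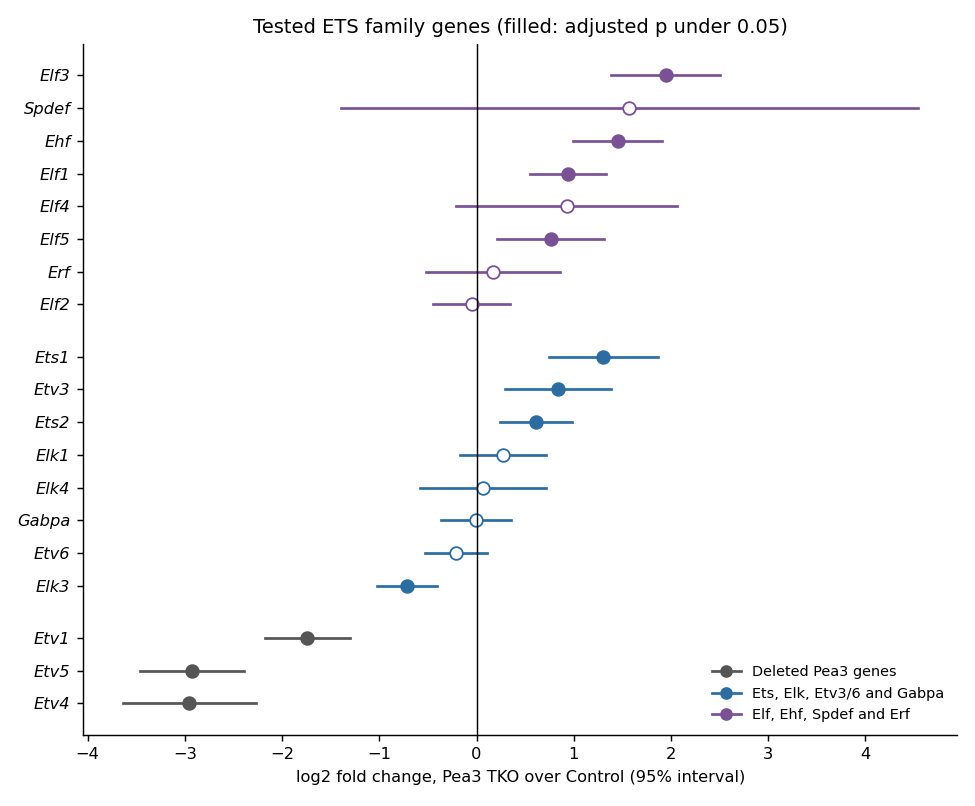
Log2 fold change of Pea3 TKO over Control with its 95% interval for the 19 tested ETS family genes, filled where the adjusted p was under 0.05. The 8 factors described here run from -0.71 for Elk3 to 1.31 for Ets1, inside the span from the deleted Etv4 at -2.95 to Elf3 at 1.94.

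The remaining ETS genes give the scale for these values. Of 14 listed genes outside both groups, 12 were in the files and 8 were tested, of which 4 were higher in Pea3 TKO and none lower, against 13.6% and 11.3% of all tested genes. The called genes were the epithelial factors Elf3 (log2 fold change 1.94, adjusted p = 7.6e-04), Ehf (1.45, adjusted p = 0.0012) and Elf5 (0.76, adjusted p = 0.047), and the broadly expressed Elf1 (0.94, adjusted p = 0.0044). With Pea3 TKO replicates 1 and 2 left out, their log2 fold changes were 1.785, 1.382, 1.044 and 0.9243 in the same order. The call of Elf5 was lost without Control replicate 2 or 3 or Pea3 TKO replicate 1 or 3, when its adjusted p was between 0.106 and 0.153. Elf2 (-0.05), Elf4 (0.93), Erf (0.17) and Spdef (1.57) did not pass, and Spdef had at most 16 counts in a library. Etv2, Fev, Spib and Spic were too low to test, with Fev and Spic at 0 counts in every library. Together with the 8 factors above, 7 of 16 tested ETS genes other than the deleted ones were called higher and 1 lower. Over the same comparison the 8 epidermal markers listed summed to 1078 to 2235 CPM in Control and 6182 to 8337 in Pea3 TKO. Of these markers 7 of 8 were called higher, against 13.6% of all tested genes. Their part in the rise of the ETS genes was not tested.

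Read counts of different genes depend on their length, so CPM was divided by the exonic length of each gene in kb. This takes reads to spread evenly over the exons, which was not checked for this amplified RNA. On this scale the order in Control was Etv6 (22.5 ± 0.355), Elk3 (17.6 ± 1.22), Gabpa (14.8 ± 2.45), Ets2 (13.2 ± 2.79), Elk1 (3.16 ± 0.264), Ets1 (1.72 ± 0.365), Etv3 (1.51 ± 0.387) and Elk4 (1.28 ± 0.162 CPM per kb, n = 3 each), with Fli1 and Erg last. The sample values of Elk3, Gabpa and Ets2 overlapped with their neighbours, as did those of Ets1, Etv3 and Elk4, whereas the step from Ets2 to Elk1 was clear of any overlap. In Pea3 TKO, Ets2 (20.1 ± 1.98) headed the order with values that overlapped those of Etv6 (19.4 ± 3.68), Elk3 (10.7 ± 1.195) moved below Gabpa (14.8 ± 2.12), and Ets1 (4.25 ± 1.15) reached the level of Elk1 (3.82 ± 0.252). The largest fold change therefore belonged to a gene of low level. By length of the longest transcript in place of all exons, Ets2 moved ahead of Elk3 and Gabpa in Control, and the order of the lower genes was kept. In Pea3 TKO, Ets2 (29.9 ± 2.94) was then clear of any overlap with Etv6 (20.4 ± 3.86).

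Summed over all 10 factors, the level per length overlapped between the groups. It was 75.5, 74.1 and 78.0 CPM per kb in the 3 controls and 71.8, 79.8 and 80.4 in the 3 Pea3 TKO libraries, or 75.9 ± 1.97 against 77.3 ± 4.83. The sums overlap, and the difference of 1.43 is smaller than the SD of either group. By length of the longest transcript the sums were 90.85 ± 3.13 in Control and 97.5 ± 5.92 in Pea3 TKO. These also overlapped, but their difference of 6.65 was larger than the SD of either group, so its size depended on the length used. Over all exons, the 3 deleted Pea3 genes went from 308.9 ± 27.6 to 40.9 ± 13.9 CPM per kb, a difference of -268.0. The 12 remaining ETS genes went from 76.7 ± 19.4 to 221.1 ± 26.4, most of it from Elf3 (36.3 ± 14.96 to 139.8 ± 17.4) and Ehf (15.9 ± 4.49 to 43.4 ± 5.86). As a share of the ETS sum, the 10 factors made up 16.5% ± 0.666 in Control and 22.8% ± 1.95 in Pea3 TKO, against 66.9% ± 3.78 and 12.1% ± 4.31 for the Pea3 genes. The total over the 25 ETS genes fell from 461.5 ± 27.9 to 339.3 ± 8.58 CPM per kb (n = 3 each). These sums are descriptions without a test, and reads from a deleted allele that is still transcribed count toward the Pea3 genes.

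**Figure D3:**
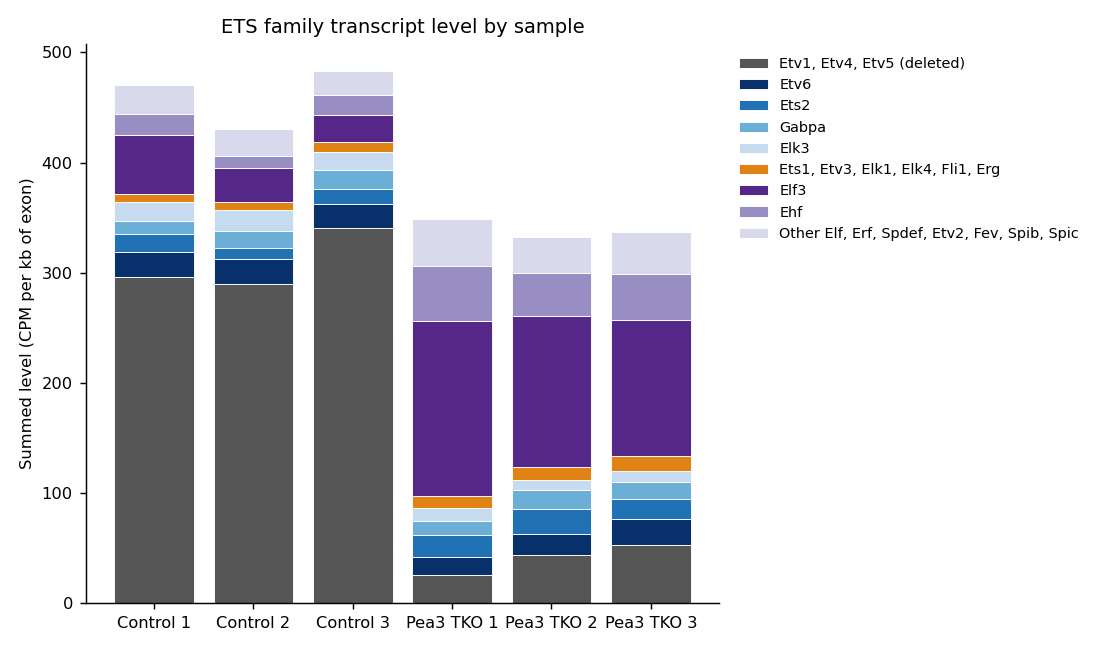
Summed level of the ETS family in each library in CPM per kb of exon, stacked by gene or gene group, with the axis from 0. The blue and orange blocks of the 10 factors together stay between 71.8 and 80.4 in all 6 libraries, while the dark grey block of the deleted genes shrinks from at least 289.9 to at most 53.05 and the Elf3 and Ehf blocks widen.

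In the genome, 4 of the factors form pairs of neighbours. On GRCm38 in GENCODE M21, Ets1 (chromosome 9, 32636221 to 32757820, plus strand) lies 93359 bases from Fli1 (32422204 to 32542861, minus strand), and Ets2 (chromosome 16, 95702075 to 95721051, plus strand) lies 115481 bases from Erg (95359169 to 95586593, minus strand). Each pair is transcribed outward from a shared interval that holds no other protein-coding gene. Ets1 and Ets2 rose while their neighbours Fli1 and Erg stayed under 1 CPM. Elk3 is on chromosome 10 from 93247414 to 93311135, Etv3 on chromosome 3 from 87525407 to 87540156, and Gabpa on chromosome 16 from 84834925 to 84863779. Gabpa shares 397 exonic bases with Atp5j, and Elk3 shares 316 with Cdk17, both on the opposite strand. Elk1 shares 76 with Uxt on its own strand. These stretches are between 1.41% and 6.98% of each gene's exons, and reads in them could be assigned to either gene or to neither.

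The stretch before the RefSeq start of each gene was searched for the core that ETS factors bind, since the members are themselves possible ETS targets. RefSeq (GRCm38.p6) gave promoters for 8 of the 10 factors. Ets1 and Fli1 had none in that table and were left out. The 250 bases before the RefSeq start are printed for the 3 called genes with a promoter, Ets2, Etv3 and Elk3, and for Gabpa as a gene that did not pass, 5′ to 3′ on the strand of the gene, with GGAA on either strand (GGAA or TTCC) in capitals. The windows are chr16:95702157-95702406 on the plus strand for Ets2, chr3:87525328-87525577 on the plus strand for Etv3, chr10:93311160-93311409 on the minus strand for Elk3 and chr16:84834874-84835123 on the plus strand for Gabpa. RefSeq and GENCODE place the starts differently, so by the GENCODE positions given above the Ets2 window lies inside the gene and those of Etv3 and Gabpa run past the gene's start, while that of Elk3 lies before it.
Ets2: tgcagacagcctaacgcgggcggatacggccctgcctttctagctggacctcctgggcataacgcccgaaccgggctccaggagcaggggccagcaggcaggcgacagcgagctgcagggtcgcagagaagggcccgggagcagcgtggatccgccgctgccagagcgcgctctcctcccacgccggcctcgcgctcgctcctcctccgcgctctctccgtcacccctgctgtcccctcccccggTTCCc
Etv3: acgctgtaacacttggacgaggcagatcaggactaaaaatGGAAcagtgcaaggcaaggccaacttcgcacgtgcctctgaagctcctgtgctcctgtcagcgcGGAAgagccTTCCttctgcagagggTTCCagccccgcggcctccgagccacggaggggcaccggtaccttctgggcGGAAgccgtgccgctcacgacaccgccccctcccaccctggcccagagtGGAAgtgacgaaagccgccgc
Elk3: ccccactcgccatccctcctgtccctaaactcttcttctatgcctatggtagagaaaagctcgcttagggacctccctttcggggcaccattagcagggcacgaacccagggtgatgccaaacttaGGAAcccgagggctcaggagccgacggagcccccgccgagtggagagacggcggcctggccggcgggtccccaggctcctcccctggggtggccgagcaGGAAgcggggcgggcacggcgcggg
Gabpa: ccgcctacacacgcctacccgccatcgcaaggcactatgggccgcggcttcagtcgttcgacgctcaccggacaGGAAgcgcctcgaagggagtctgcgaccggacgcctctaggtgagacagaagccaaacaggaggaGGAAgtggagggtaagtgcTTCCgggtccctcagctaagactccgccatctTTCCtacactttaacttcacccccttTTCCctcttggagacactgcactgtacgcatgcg
Etv3 held 6 GGAA cores and Gabpa 5, against 2 for Elk3 and 1 for Ets2. The median over 32841 promoter windows of the same length was 3, and 93.5% of them held at least 1, so the core by itself is common. The longer CGGAAG, which contains GGAA, was found in 13.6% of all windows, and it occurred 2 times in the window of Etv3, 1 time in that of Gabpa and not in those of Ets2 or Elk3. None of these 4 windows held the CArG box that SRF binds, which was in 1.47% of all windows. A match is a description of the letters, and its absence says nothing of binding elsewhere.

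Cofactors of the members were called in both directions, 3 of 10 lower and 1 higher, against 11.3% and 13.6% of all tested genes. The partner of the Elk factors, Srf, was at 70.1 ± 4.55 CPM in Control and fell to 47.6 ± 2.27 (n = 3 each, log2 fold change -0.56, adjusted p = 0.013). Gabpb1, which binds Gabpa and carries the activation domain of the complex, fell from 97.8 ± 10.7 to 68.2 ± 6.91 CPM (n = 3 each, log2 fold change -0.52, adjusted p = 0.023), while Gabpa itself did not pass. Sp100, a nuclear body protein that binds Ets1, had 0 counts in all 3 controls and 29, 14 and 40 in Pea3 TKO. Set against 3 counts per control library, its Pea3 TKO mean of 1.72 CPM is at least 9.38-fold higher (adjusted p = 0.0063), and the mouse locus has near-identical copies that make its counts uncertain. The other 6 cofactors had log2 fold changes from -0.21 to 0.32 that did not pass.

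Upstream of the factors, 2 of 10 listed kinases of the ERK cascade were called, both higher, a share no larger than the 25.0% of all tested genes. Mapk3 (ERK1) rose from 58.9 ± 0.263 to 85.2 ± 2.37 CPM (n = 3 each, log2 fold change 0.53, adjusted p = 0.011) and Map2k1 (MEK1) had a log2 fold change of 0.52 (adjusted p = 0.026). The ERK-activated kinase Rps6ka1 (-0.36, adjusted p = 0.13) did not pass, nor did any other kinase of the list. RNA levels do not measure the phosphorylation by which these kinases act.

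Known targets of the members were counted by class. Of 10 targets of SRF and the Elk factors, 8 were tested, of which 4 were higher and 1 lower, again against 13.6% and 11.3% of all tested genes. Junb rose from 15.2 ± 4.40 to 63.9 ± 4.30 CPM (n = 3 each, log2 fold change 2.07, adjusted p = 2.4e-04) and Egr1 from 40.4 ± 5.31 to 154.2 ± 49.2 (n = 3 each, 1.93, adjusted p = 4.4e-04). Egr2 had a log2 fold change of 3.03 (adjusted p = 0.0061), and Fos, named after its values were seen, one of 2.45 (adjusted p = 0.013). Nr4a1 went the other way, with a log2 fold change of -0.91 (adjusted p = 0.0041), and the other 3 lay between -0.135 and 0.02 and did not pass. With Pea3 TKO replicates 1 and 2 left out, 2 of these targets were called, and 0 of the cofactors and 0 of the kinases, where 4.32% of all genes were called, so that counts of 0 in lists of 10 say little.

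For Gabpa, none of the 5 targets tested was called by the quasi-likelihood test, and none had an unadjusted p under 0.05. As 25.0% of all tested genes were called, 0 of 5 says little. Every Pea3 TKO library was above every control for Cox4i1 and below every control for Tfb2m, as for 22.5% and 21.3% of all tested genes. Log2 fold changes ran from -0.42 for Tfb2m (adjusted p = 0.15), a mitochondrial transcription factor, to 0.25 for Cox4i1 (adjusted p = 0.14), a subunit of cytochrome c oxidase. DESeq2 and limma voom called none of them either. For Ets1 and Ets2, 3 of 6 listed targets were tested and 1 was called, higher in Pea3 TKO. Among all tested genes 13.6% were called higher, and a list of 3 is too short to set against that share. Mmp9, a matrix metalloproteinase, had 14, 0 and 6 counts in Control against 126, 404 and 508 in Pea3 TKO. The log2 difference was 5.75 (standard error 0.81) with an adjusted p of 0.0012. It was lowest in Pea3 TKO replicate 1 and highest in replicate 3, and all 3 were above every control. Timp1 had a log2 fold change of 1.29 (adjusted p = 0.058), and the 3 targets not tested had at most 4 counts in any library.

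**Figure D4:**
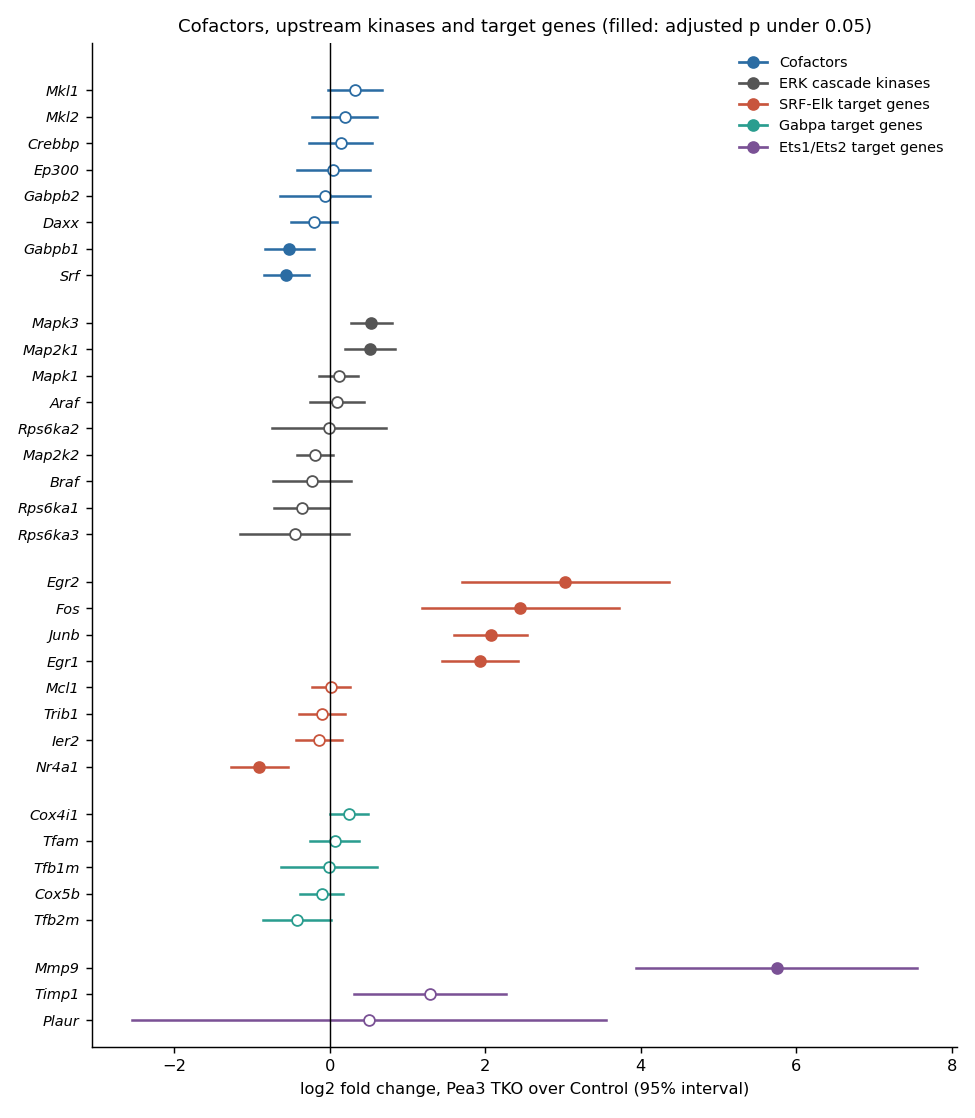
Log2 fold change of Pea3 TKO over Control with 95% intervals for tested cofactors, ERK cascade kinases and target genes of the members, filled where the adjusted p was under 0.05. Sp100 is left out because its controls were all at 0 counts. The SRF-Elk targets split between 4 genes from 1.93 to 3.03 and 4 from -0.91 to 0.02, and the 5 Gabpa targets lie between -0.42 and 0.25.

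Genes with a pattern over the 6 libraries most like that of a called member were looked up by the Euclidean distance between log2(CPM + 1) values centred on their mean. Nearest to Ets1 were Cpne7 (distance 0.222) and Rin1 (0.292), and nearest to Ets2 were Arap1 (0.117) and Pygb (0.133). For Etv3 they were Fkbp1b (0.209) and Cish (0.221), and for Elk3 Pdia5 (0.114) and Smarcad1 (0.181). With 6 libraries in 2 groups, such likeness rests mainly on the difference between the groups.

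**Figure D5:**
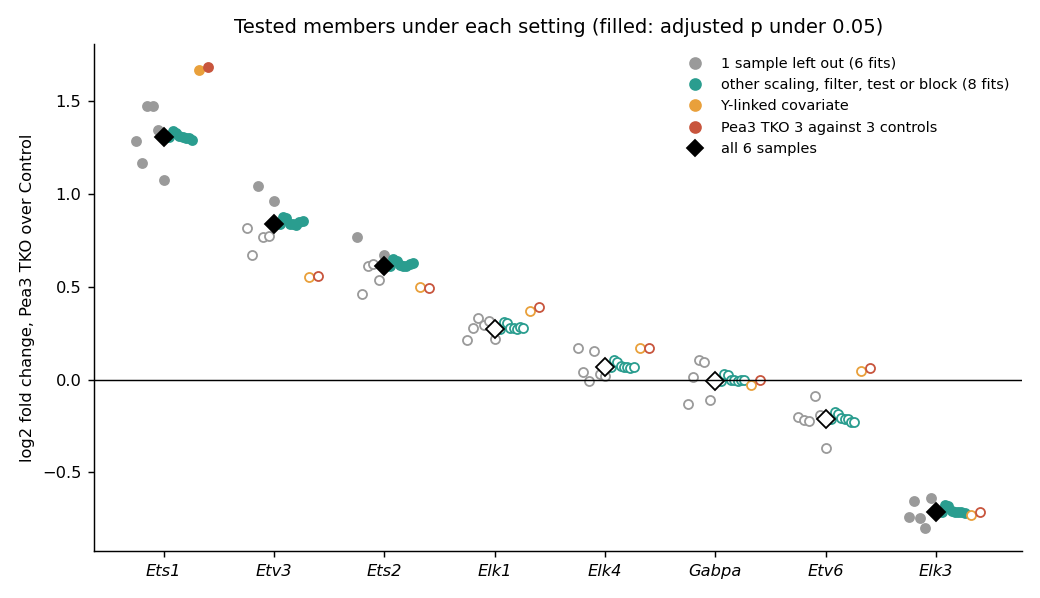
Log2 fold change of the 8 tested factors with all 6 samples (diamonds) and under each other setting (circles), filled where the adjusted p was under 0.05. Ets1 stays above 1 and filled in every fit, Elk3 stays between -0.80 and -0.64 with open circles for the Y-linked covariate and for Pea3 TKO replicate 3 alone, and several fits for Ets2 and Etv3 are open circles between 0.46 and 0.82.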

How the data were processed

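RNA-seq counts were analysed for 3 Control and 3 Pea3 TKO libraries, grouped by sample title. The authors amplified RNA from laser-captured tissue and deposited 1 table of raw read counts per gene symbol and sample, without normalization. The submitters' processing notes name bcl2fastq 2.17, STAR 2.5.2b, featureCounts 1.5.0-p3, DESeq and mm10 (GRCm38). The annotation and the strand setting of the counting are not given in the sources used here.

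From the deposited counts, filterByExpr of edgeR 4.0.16 (R 4.3.3) kept 13087 genes. Counts were TMM-normalized and Pea3 TKO was set against Control by the quasi-likelihood test, without covariates. The standard error is the size of the log2 fold change over the square root of F. The members and gene lists were chosen with earlier results of these data known. Named genes are all ETS genes in the files, up to 4 genes of smallest p per list and the 2 nearest genes in pattern. Of the cofactors and kinases, 2 are counted but not reported here by name. Exonic lengths and positions come from GENCODE M21, promoters from RefSeq. No protein table was used here. No replicate pair agreed within sampling noise (chi-square per degree of freedom at least 15.5).

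Alternatives were other scalings and filters, DESeq2 1.42.0, limma 3.58.1 (voom), a replicate block, a covariate for Y-linked genes and leaving out each sample in turn. Leaving out Pea3 TKO replicates 1 and 2 together was added after the data were seen. Scripts were tested on simulated counts with known changes. The share of unchanged genes among the DESeq2 calls there exceeded the limit set, and this limit was afterwards applied to the other tests only.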

Additional observations from a re-analysis of the deposited data

How the results depend on the processing

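Other scalings, low-count filters, DESeq2, limma voom and the replicate block left the 3 higher and 1 lower calls among the members in place, and no named ETS gene called with all samples changed direction. Ets1 passed in every fit. With the Y-linked covariate, 865 genes were called over all tested, and among the members 1 higher (Ets1) and 0 lower, with log2 fold changes of 0.4998 for Ets2 (adjusted p = 0.266), -0.7282 for Elk3 (0.0828) and 0.5543 for Etv3 (0.375). With Pea3 TKO replicates 1 and 2 left out, chosen after the data were seen, 597 genes were called, with 1 higher and 0 lower among the members, and values of 0.4921 for Ets2, -0.7151 for Elk3 and 0.5597 for Etv3. These settings gave, in the same order, 2 and 1 calls among other ETS genes, 1 and 0 among cofactors, 0 and 0 among ERK kinases, 3 and 2 among SRF-Elk targets, 0 and 0 among endothelial and 0 and 0 among mesenchymal markers. The covariate called 1 erythroid marker, and leaving out the 2 libraries called 3 epidermal ones. Leaving out 1 sample at a time gave 1948 (without Control replicate 3) to 3344 calls over all genes, 1 to 3 higher members, 0.4623 to 0.7697 for Ets2, 0.6709 to 1.041 for Etv3, 1 to 4 cofactors, 1 to 2 kinases, 0 to 1 endothelial and 0 to 7 mesenchymal markers. Ets1/2 targets called were 2 by DESeq2, voom and the stricter filter. Endothelial calls were 3 by DESeq2 and 2 without a filter or with the stricter one, and mesenchymal calls 0 by voom and 0 with the replicate block. The causes were not tested. Deviations from the group means correlated at 0.144, -0.064 and 0.045 for replicate numbers 1 to 3, against a mean of -0.021 for different numbers. With 3 samples per group, pairing by replicate number was neither shown nor excluded. The replicate block gave 3191 calls, with 1.291 for Ets1, 0.6266 for Ets2, 0.8552 for Etv3 and -0.717 for Elk3. The smallest p of an exact permutation test at this size is 0.1, and genes under a few CPM, Fli1 and Erg among them, were limited by depth.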
